A study of Hordeum vulgare with 6 samples.

Results

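Genes at the distal ends of the 7 barley chromosomes, 1H to 7H, were compared with the genes between them for density, shoot expression and response to low phosphate. A gene was taken as distal when its midpoint lay in the outermost 10% of its chromosome at either end, measured against the largest gene coordinate listed on that chromosome. By this rule 16160 genes were distal, of 37577 on 1H to 7H and of 39841 in the whole table, and the other 21417 genes of 1H to 7H formed the comparison group. The rule used position only and no measured value. The end where coordinates begin is called the start end (7232 genes) and the opposite one the far end (8928 genes). The plants were the barley (Hordeum vulgare) line Rolap, grown to day 23 in soil that held 8 mg of phosphorus (P) per kg. Control plants received a further 60 mg P per kg and low-Pi plants received none, Pi being inorganic phosphate, so that both groups shared the soil and the age of harvest. Shoots of 3 plants from a pot made 1 sample, and each group had 3 samples. The table gives no value per sample, so depth is unknown and no spread between samples can be printed.

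Barley chromosomes are large and rich in repeats, and their genes lie mainly towards the ends, where most recombination takes place in cereals, while the pericentromeric middle holds few genes and much silent repetitive DNA. Distal regions of cereal chromosomes are known for gene families that expand by local duplication, many of them with roles in defence. Under phosphate shortage plants switch on a set of genes through transcription factors of the PHR family, which bind the P1BS element in promoters, and replace membrane phospholipids with lipids free of phosphate.

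Upstream sequence was at hand for 48 of the 50 distal genes that changed most clearly in low-Pi (given below), and its first 399 bases, the part farthest from the gene, were searched. The motifs were P1BS, written GNATATNC, which reads as itself on the opposite strand, and the PHO element ATGCCAT, searched on both strands. P1BS occurred in 6 of the 48 genes (12.5%) and the PHO element in 4 (8.33%), against 3 (6.82%) and 5 (11.4%) of the 44 other called genes of 1H to 7H. No genome was at hand to give the share over all promoters. These counts leave out the bases nearer the gene, and they say nothing of how many of the called genes hold a motif there. The study's own motif search covered the full 2 kb. In its P1BS list, distal and other called genes of 1H to 7H appeared in nearly equal shares. The difference in the far bases is therefore no sign that P1BS is more frequent at the ends. The windows below are a selection from distal genes described further on. Other windows found in such genes are not printed. Capitals mark the motif, and each window is written 5′ to 3′ on the strand of the gene. Coordinates are on IBSC_v2 and assume that the 2 kb were counted back from the gene start listed in the table.
NRT2.1, P1BS, chr6H:12657171-12657200, minus strand: ttaacacttaaGCATATACaatagcaaaat
NRT2.1, P1BS, chr6H:12657117-12657146, minus strand: ttaacacttaaGCATATACactatacaata
Light-harvesting gene HORVU1Hr1G088920, P1BS, chr1H:543160983-543161012, minus strand: cattcctcacaGGATATCCataacttgtga
Pathogenesis-related protein 1-like gene, P1BS, chr5H:623105420-623105449, plus strand: tataagaatgaGTATATGCacatatatatg
SQD2-like gene, PHO element, chr3H:23193631-23193659, minus strand: ccctcagcttcATGCCATttatattcctt
Chalcone synthase 2 gene, PHO element, chr1H:544057623-544057651, minus strand: aacttttggggATGCCATagcgatctaga
The NRT2.1 pair lay 54 bases apart and shared their first 20 bases. By these coordinates the motif before HORVU1Hr1G088920 fell inside the listed span of the neighbouring gene HORVU1Hr1G089180, and the one before the SQD2-like gene inside HORVU3Hr1G010550. Over the whole genome such crowding was a little more frequent at the ends: the 2 kb upstream of 17.8% of distal genes reached into another listed gene, against 14.5% of the other genes. Of the called genes it did so for 5 of 50 distal and 4 of 44 other genes.

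Genes were packed 3.02-fold more densely at the ends. The distal ends held 17.6 genes per Mb and the rest of the chromosomes 5.84 genes per Mb, so that 20% of the length carried 43% of the genes. The ratio was above 1 on 7 of 7 chromosomes, from 2.26 on 5H to 3.49 on 7H. The densest of the 14 ends were the far ends of 5H (21.5 genes per Mb), 1H (21.4 genes per Mb) and the start end of 7H (20.7 genes per Mb), and the sparsest was the start end of 5H (11.7 genes per Mb). Density dropped steeply inwards from the ends, from 23.6 genes per Mb in the outermost 2% to 12.6 genes per Mb at 8 to 10%, with 10.8 genes per Mb in the next 2% beyond the threshold. The median distance to the nearest neighbouring gene was 5.93 kb at the ends (quartiles 0.649 and 22.6 kb) and 15.4 kb elsewhere (quartiles 0.926 and 86.3 kb). Median gene span was alike in both groups, 2331 bases in distal and 2332 bases in other genes. It varied along the chromosomes, however, from 1571 bases in the sparse bin at 40 to 45% to 2682 bases at 85 to 90%. More distal genes overlapped another gene of the table, 17.1% against 14.3%. Whether reads were counted by strand is not given in the sources used here, so values of overlapping genes are uncertain.

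**Figure D1:**
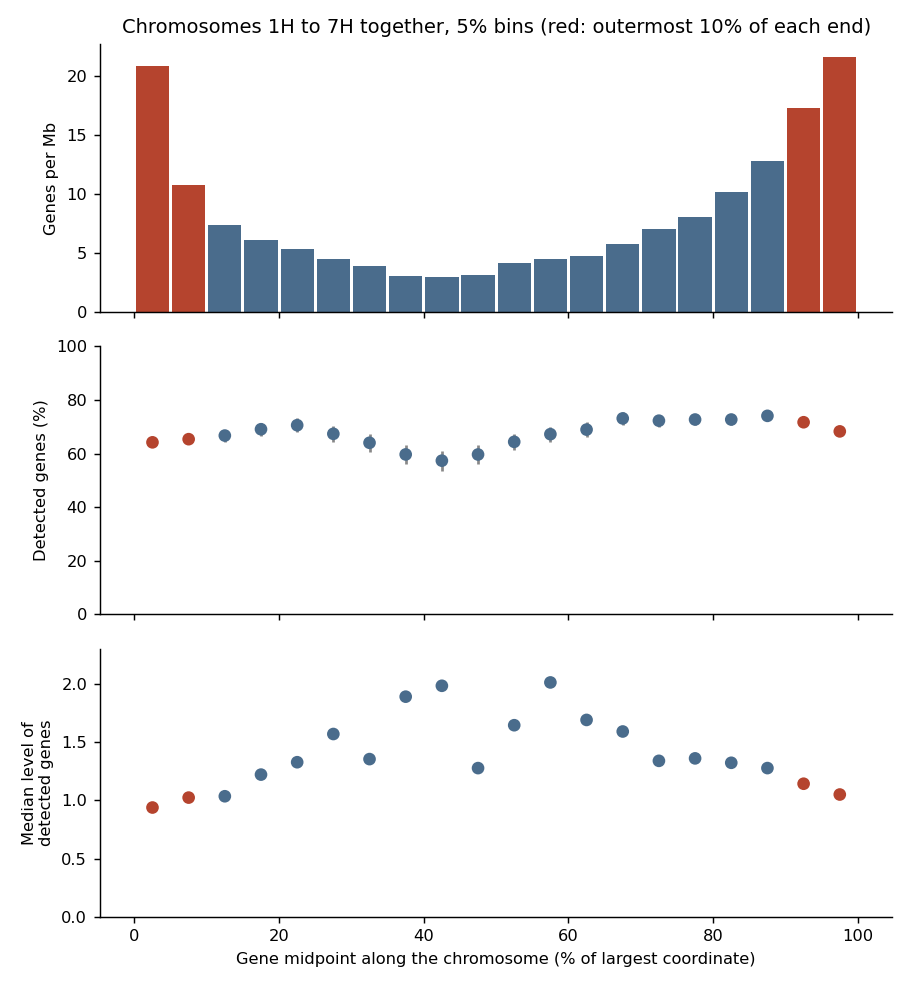
Gene density (top, genes per Mb), share of genes detected in shoots (middle, percent, with exact 95% binomial intervals) and median level of detected genes (bottom, deposited expression signal) in 20 bins along chromosomes 1H to 7H pooled, red for the outermost 10% of each end. Density climbs to 20.8 and 21.6 genes per Mb in the first and last bins, where the median level is 0.938 and 1.05, and detection is lowest near the middle, at 57.4%.

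Fewer distal genes were seen in shoots. A gene was counted as detected when its level, the higher of the group means in the table, was above 0. This held for 10904 distal genes, 67.5% (exact 95% binomial interval 66.7 to 68.2%), and for 69.3% of the other genes (68.7 to 69.9%). Such intervals cover counting error only and treat genes as independent, which neighbouring and duplicated genes are not. The remaining 5256 distal genes were listed at 0. At a level of at least 1 the gap was wider, with 34.3% of distal and 38.5% of other genes. The difference was not shared by all chromosomes. Detection was lower at the ends on 5 of 7 chromosomes, most on 7H (65.1% against 70.6%), and higher on 4H (71.6% against 67.9%) and 6H (66.6% against 65.6%). It also depended on the width chosen, since with ends of 20% the distal share was 0.857 percentage points above that of the rest. Start ends were detected less often (64.6%) than far ends (69.8%), and the 14 ends ran from 58.7% at the start end of 1H to 75.03% at the start end of 4H. Detection was not a simple function of distance from the end either: it was 66.5% in the outermost 2%, 72.0% at 8 to 10%, and at its lowest, 57.4%, in the sparse middle of the chromosomes between 40 and 45%.

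Detected distal genes were also expressed at lower levels. Their median level was 1.05 (quartiles 0.132 and 4.84) against 1.41 (quartiles 0.207 and 5.90) in the other genes, a ratio of 0.745. The quartiles overlapped widely. The median was lower at the ends on 6 of 7 chromosomes, least on 4H (1.51 against 1.66) and most on 7H (0.852 against 1.41), and higher on 5H alone (1.27 against 1.18). Of detected distal genes, 49.2% had a level under 1, against 44.4% of the others, while the shares with a level of 100 and over were alike, 2.15% and 2.08%. Distal genes together carried 32.8% of the summed level of 1H to 7H, less than their 43% of the genes, yet per Mb their summed level was 190.4 against 97.6 elsewhere.

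**Figure D2:**
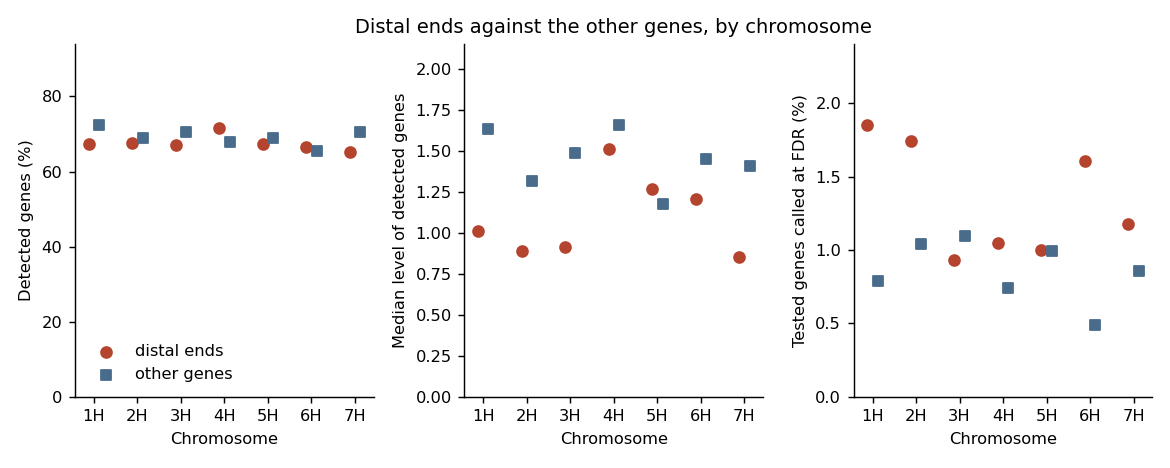
Share of genes detected (left, percent), median level of detected genes (middle) and share of tested genes called at FDR (right, percent) for distal genes (red circles) and the other genes (blue squares) of each chromosome. On 1H, 2H and 6H the called share is 1.85%, 1.74% and 1.61% at the ends against 0.790%, 1.04% and 0.490% elsewhere, while on 5H the symbols nearly coincide and on 3H the distal share is the lower one (0.931% against 1.10%).

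The 5 distal genes with the highest levels made up 23.0% of the summed distal level, and none was called in low-Pi. HORVU6Hr1G076390 stood at a level of 14384 with a log2 fold change of 0.25, and HORVU6Hr1G085170 at 8578 with 0.46. HORVU2Hr1G010670 stood at 7182 with a log2 fold change of 0.77 and HORVU2Hr1G010690, on the same stretch of 2H, at 3602 with 0.73. HORVU1Hr1G088870 stood at 6394 with 0.92. All of these fold changes were above 0, with unadjusted p between 0.00559 and 0.804 and Bonferroni p of 1. The sources used here give these genes no name. HORVU6Hr1G076390 lay at 90.1% of its chromosome, close to the threshold. The bin just inside the threshold, 9 to 10% from an end, had 12.3 genes per Mb, a detected share of 71.7% and a median level of 1.14, and the bin just outside, 10 to 11%, had 11.8 genes per Mb, 69.8% and 1.39. The genes nearest the line, HORVU3Hr1G089750 inside at 90.005% and HORVU3Hr1G021400 outside at 10.004%, were both listed at 0.

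In low-Pi shoots a larger share of the distal genes changed. Each log2 fold change below compares low-Pi with control as the authors' model fitted it in their deposited table, which lists no standard error, and a gene is called at an adjusted p under 0.05 in that table. After Bonferroni correction 50 of 10904 tested distal genes were called, or 0.459% (interval 0.341 to 0.604%), where 0.363% of all tested genes were. The other genes of 1H to 7H had 44 calls, or 0.297% (0.216 to 0.398%), so the ends held 53.2% of the 94 calls on these chromosomes. At the false discovery rate (FDR) 146 distal genes were called, 1.34% (1.13 to 1.57%), against 1.07% of all tested genes and 132 others, 0.890% (0.745 to 1.05%). The intervals of the distal and the other genes overlapped at Bonferroni and not at FDR. The gap to the other genes was wider among genes that fell. After Bonferroni correction 26 distal genes rose, with 0.207% of all tested genes called higher, and 24 fell, with 0.155% of all called lower, whereas 29 of the other genes rose and 15 fell. At FDR 65 distal genes rose (background 0.503%) and 81 fell (background 0.570%), against 66 and 66 of the others. The bulk of distal genes was not shifted: their median log2 fold change was 0.02 and that of the other genes 0.03, with 51.8% and 52.3% of values above 0. The sizes of the fold changes differed slightly, with a median absolute log2 fold change of 0.39 at the ends and 0.35 elsewhere, and this was higher at the ends on 7 of 7 chromosomes.

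Level moved with the call at FDR, where genes at higher levels were called more often in both groups. After Bonferroni correction this held for distal genes, while the share of other genes called was 0.0455%, 0.525%, 0.450% and 0.325% from the lowest to the highest class. Within each of 4 level classes the share of tested genes called at FDR was higher at the ends. It was 0.410% against 0.258% at levels above 0 to 1, 2.06% against 1.28% at 1 to 10, 2.39% against 1.53% at 10 to 100, and 4.27% against 2.60% at 100 and over. After Bonferroni correction the widest gap was in the top class, with 7 of 234 distal and 1 of 308 other genes. Those 7 were 5 light-harvesting genes, IPS1 and HORVU6Hr1G008780. Without the light-harvesting genes 44 distal genes were called. The difference in absolute fold change shrank at higher levels. It was 0.05 among genes under a level of 1, 0.02 at 1 to 10 and at 10 to 100, and -0.01 at 100 and over.

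**Figure D3:**
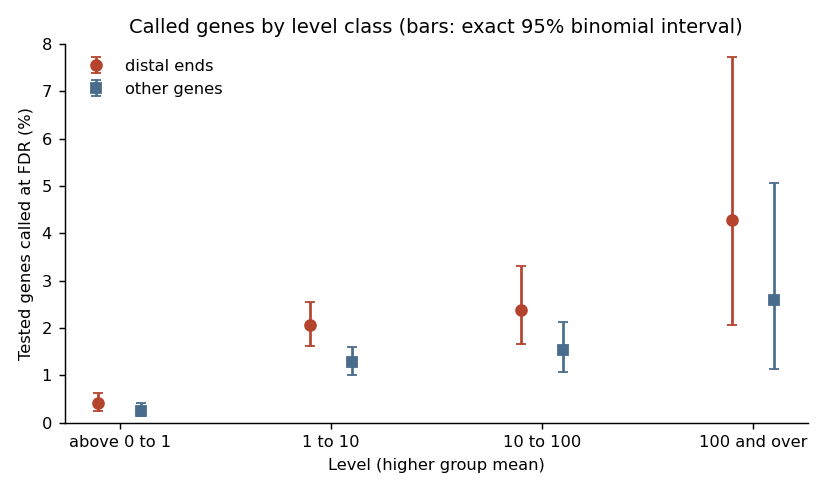
Percent of tested genes called at FDR (vertical axis) in 4 classes of level (horizontal axis), red circles for distal and blue squares for other genes of 1H to 7H, with exact 95% binomial intervals. The distal value is higher in each class, 0.410% against 0.258% at the lowest levels and 4.27% against 2.60% at the highest, and the intervals overlap in the lowest class and in the top pair of classes.

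The chromosomes did not contribute alike. Bonferroni calls at the ends numbered 13 on 2H, 11 on 6H, 8 on 1H, 7 on 3H, 5 on 4H and 3 each on 5H and 7H. Their share of tested genes was above that of the other genes of the same chromosome on 4 of 7 chromosomes, most of all on 6H (0.805% against 0.122%), and below it on 5H (0.200% against 0.479%), 3H (0.434% against 0.464%) and 7H (0.177% against 0.190%). At FDR it was above on 6 of 7. No gene was called after Bonferroni correction at the start ends of 1H and 5H, among 478 and 466 tested genes, which allows shares of up to 0.769% and 0.788%, and 4 genes were called at FDR in each of them. The start end of 6H had the highest share, 8 of 630 tested genes (1.27%), but 4 of the 8 lay in a single 171 kb run that includes light-harvesting genes.

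Of the 50 called distal genes, 34 have names in the sources used here, and they fall into a few groups. The study picked these names from the same libraries, so a count within a group is no independent evidence of its direction. Nor does such a count show where genes of that kind lie, since 53.2% of the Bonferroni calls on 1H to 7H were distal. Some names, among them those of FD1, the HORVU1Hr1G078380 chlorophyll binding protein, alpha-amylase, nitrite reductase, laccase and beta-sesquiphellandrene synthase, could be tied to an identifier only through the fold change itself.

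The 6 genes of the light-harvesting list were distal and rose. HORVU1Hr1G089620, also distal, fell by 1.92 and is not on the list: a supplement of the study gives it a light-harvesting name, but beside a rise, so that name was not used. They encode chlorophyll a/b binding proteins, the antenna proteins that pass light energy to the photosystems. HORVU1Hr1G078380, on the far end of 1H, rose by 8.90 on the log2 scale to a level of 206. The others rose by much less. The 1H pair HORVU1Hr1G089180 and HORVU1Hr1G088920 rose by 1.79 and 1.75 at levels of 362 and 411, and the 6H genes HORVU6Hr1G016850, HORVU6Hr1G016880 and HORVU6Hr1G016890 by 2.04, 2.02 and 1.75 at levels of 67.7, 101 and 350. Genes of this family are close in sequence, and how reads that match several copies were shared out is not given in the sources used here. FD1, a ferredoxin gene on the start end of 4H and thus also part of photosynthetic electron transfer, had the highest fold change among the tested distal genes, a log2 value of 14.20 (Bonferroni p 0.000566) at a level of 72.9. A value of that size means that the control mean was close to 0, so the fold is uncertain. FD1 also overlaps another gene of the table.

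Of 11 genes on the Pi signalling list only IPS1 and PHO2 were distal. IPS1, a non-coding RNA that binds miR399 and so spares its target, rose by 5.89 to a level of 685 and lay at 5.29% from the far end of 4H. PHO2, the ubiquitin-conjugating enzyme whose transcript miR399 cleaves, lay at 96% of 1H, had a log2 fold change of -1.33 at a level of 7.92, and was called at FDR (0.00666) but not after Bonferroni correction (1). The shoot degradome of the study, which maps the ends of cleaved transcripts, paired PHO2 with variants of miR399 and with a small RNA classed there as unannotated. That small RNA, labelled unnamed below, differs from a rice miR399a by 1 mismatch. The study places it in the miR399 family and suspects that it may act as a further miR399 variant. All of the small RNAs shown share their seed, bases 2 to 8, in capitals, and they are printed because their target is distal.
miR399b/miR399a: tGCCAAAGgagaattgccctg
miR399a variant: tGCCAAAGgagagttgccctg
Unnamed small RNA: tGCCAAAGgagaactgccctg
The same shoot target tables held 6 distal genes in all. Of these 4 were tested and 4 had values below 0, PHO2 among them, and 1 was called at FDR, where 1.07% of all tested genes were called and 51.8% of tested distal genes had values above 0. Among the other shoot targets 2 of 7 tested genes were called and 4 were below 0. Of the distal genes among root targets, 53 were tested, 28 had values above 0 and 1 was called at FDR. HORVU7Hr1G003920, for a glutaminyl-peptide cyclotransferase, had a log2 fold change of -0.17 at a level of 2.23, HORVU1Hr1G093760 of -1.11 at 0.388 and HORVU3Hr1G094250 of -0.67 at 0.548. HORVU3Hr1G092270 and HORVU5Hr1G016670 were listed at 0. Of the 6 purple acid phosphatase genes on the list 0 were distal. Active enzymes of this kind release phosphate from organic compounds, but the study names the listed HORVU5Hr1G081950 a probable inactive one.

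Lipid and nitrate genes were split differently. Among 4 lipid remodelling genes 2 were distal and both rose. The SQD2-like gene, whose enzyme makes the sulfolipid that stands in for phospholipids, rose by 3.74 at a level of 7.54, and an sn1-specific diacylglycerol lipase gene rose by 4.21 at a level of 0.975. All 3 nitrate genes were distal. NIGT1, a transcriptional repressor that links phosphate and nitrate status, rose by 3.797 at a level of 7.45, and the gene of nitrite reductase, which turns nitrite into ammonium in plastids, rose by 1.98 at a level of 89.7. NRT2.1, a high-affinity nitrate transporter whose upstream windows are printed above, fell by 2.60 on the log2 scale at a level of 3.69.

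Defence and phenylpropanoid genes made up the largest falling group, with 10 of the 12 on the list distal, of which 9 fell and 1 rose. This list holds called genes only, so the count does not show where defence genes lie or how distal defence genes respond. Oxalate oxidase 2 and oxalate oxidase, enzymes that release hydrogen peroxide from oxalate, lay in the same 15.2 kb stretch on the start end of 4H, with HORVU4Hr1G005410, listed at 0, between them. The first fell by 4.41 at a level of 0.978 and the second fell by 2.62 at a level of 2.34. The gene of beta-sesquiphellandrene synthase, which makes a volatile terpene, fell by 3.41 at a level of 2.06. Chalcone synthase 2, of the first committed step of flavonoid synthesis, fell by 3.05 at a level of 17.98. The caffeic acid O-methyltransferase gene, of lignin synthesis, fell by 2.05 at a level of 13.9, and a laccase gene, for an oxidase that can polymerise lignin precursors, fell by 2.097 at a level of 9.13. A premnaspirodiene oxygenase-like gene fell by 1.97, and cysteine-rich receptor-like protein kinase 10 fell by 1.54. The pathogenesis-related protein 1-like gene fell by 1.40 at the highest level of the group, 58.1. The member that rose was a peroxidase 57-like gene, with a log2 fold change of 1.94 at a level of 4.66.

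Among other genes that rose, an alpha-amylase gene, for an enzyme that breaks down starch, had a log2 fold change of 7.30, but at a level of 0.836. An inactive protein kinase gene rose by 4.30 at a level of 3.42, and the RCI2A-like gene, for a small hydrophobic membrane protein, by 3.89 at a level of 26.3. HORVU6Hr1G007360, of unknown name, rose by 3.72 at a level of 0.716. The S1/P1 endonuclease gene, for a nuclease that can release phosphate from nucleic acids, rose by 3.11, an alpha/beta hydrolase gene by 2.93, a profilin gene, for an actin-binding protein, by 2.29 and a molybdate transporter 2 gene by 1.95. Among other genes that fell, a cytochrome P450 gene, for an oxidising heme enzyme, fell by 2.62 at a level of 5.24, and HORVU6Hr1G012090 fell by 2.52 at a level of 26.6. An endoplasmic reticulum metallopeptidase 1 gene fell by 2.51 at a level of 0.844, and the dnaJ C76 chaperone gene of chloroplasts fell by 2.39 at a level of 6.67. HORVU6Hr1G008780 fell by 2.17 at a level of 159.8, the highest level among the called distal genes that fell. Carotenoid cleavage dioxygenase 1, which cuts carotenoids into volatile compounds, fell by 1.43 at a level of 4.20. The 16 called distal genes without a name comprised 6 that rose, by 1.79 to 3.72, and 10 that fell, with log2 fold changes of -2.52 to -1.496.

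**Figure D4:**
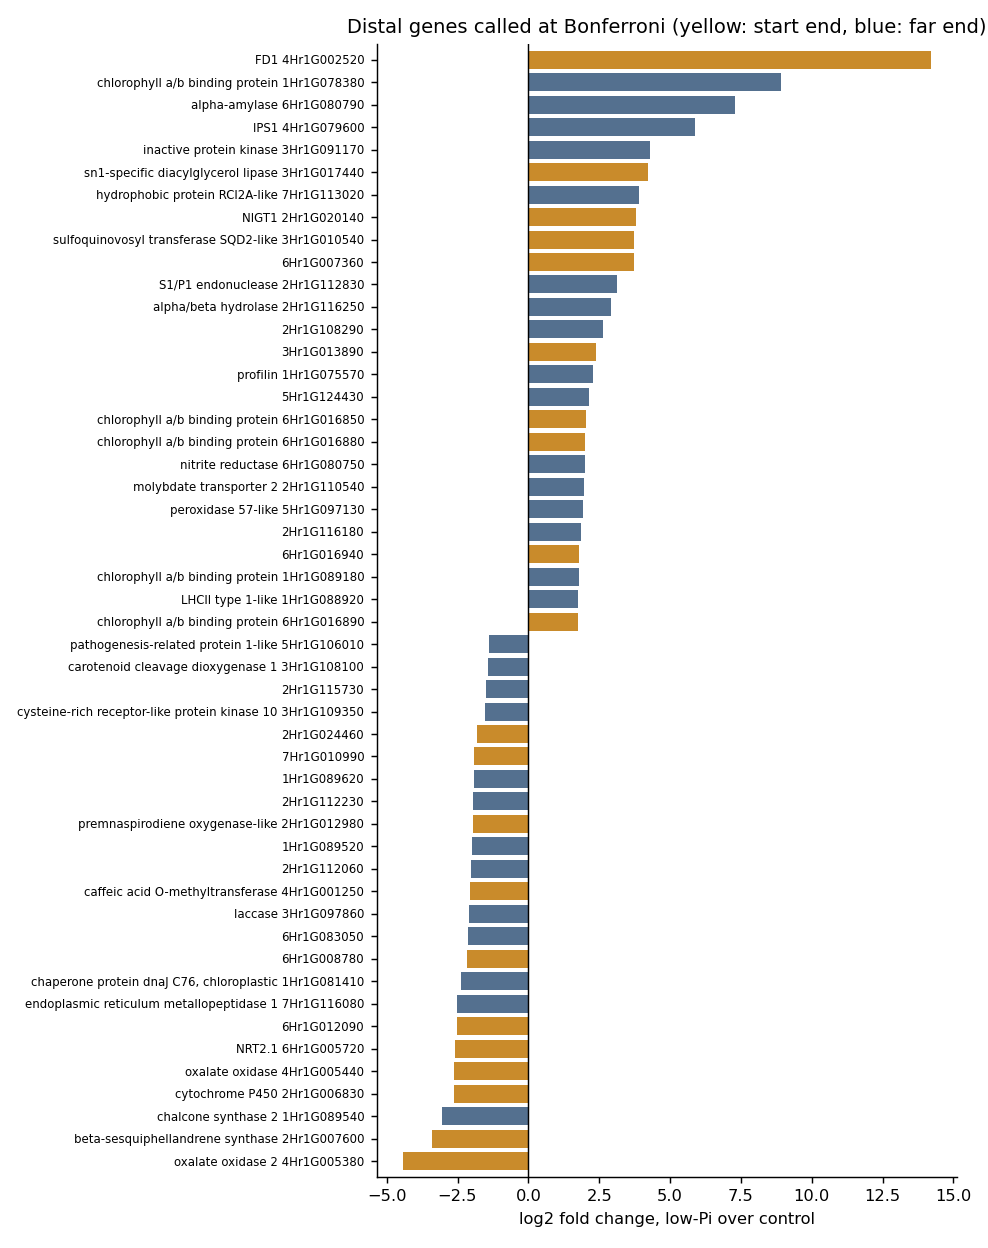
The log2 fold change of low-Pi over control (horizontal axis) for each of the 50 distal genes called after Bonferroni correction, yellow for the start end and blue for the far end, with identifiers written without their HORVU prefix. The 26 that rose run from 1.75 to 14.20, and the 24 that fell run from -4.41 to -1.396.

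Some called distal genes lay in 4 runs with no more than 100 kb between neighbours, while most of the 50 lay in no run. In each run the called genes moved the same way. The longest, on 6H from 38404516 to 38575557, held 8 genes, all tested, of which 4 were called. Besides the light-harvesting genes it included HORVU6Hr1G016940, which rose by 1.79 at a level of 92.4. The 4 genes between them had levels of 0.123 to 0.306 and were not called. On 1H a 99.1 kb run held HORVU1Hr1G088920 and HORVU1Hr1G089180 together with HORVU1Hr1G088930 and HORVU1Hr1G089150. Both of these were listed at 0 and lie inside the listed span of HORVU1Hr1G088920, which takes up most of the run. A second run on 1H held chalcone synthase 2 and HORVU1Hr1G089520, which fell by 1.98 at a level of 42.2. The run on 4H, 15.2 kb long, held both oxalate oxidase genes. With each run counted once, the 50 distal genes made 44 loci, and 39 when called genes up to 1 Mb apart were joined. For the 44 other called genes these counts were 42 and 39.

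The direction of change among called genes differed between the outer and the inner part of the distal ends. In the outermost 6%, a division chosen after the values were seen, 101 genes were called at FDR, of which 32 rose and 69 fell. At 6 to 10% from an end 45 were called, of which 33 rose and 12 fell. As shares of tested genes this was 0.432% higher and 0.932% lower in the outer zone and 0.942% higher and 0.343% lower in the inner zone. Over all tested genes 0.503% were called higher and 0.570% lower. The excess of rises was uneven: at 5 to 10% from an end, 16 rose and 3 fell at start ends, and 21 rose and 15 fell at far ends. Just beyond the threshold, at 10 to 12%, 6 rose and 6 fell. Without the light-harvesting genes the counts were 30 and 69 in the outer and 29 and 12 in the inner zone. With called genes of the same direction within 100 kb joined, there were 30 loci that rose and 60 that fell in the outer zone, and 29 and 12 in the inner zone. In the outer zone genes that fell outnumbered those that rose on 5 of 7 chromosomes, most on 2H (20 against 4) and 1H (15 against 6), with 5H equal and 4H the other way (5 against 6). In the inner zone genes that rose were the majority on 5 of 7, most on 6H (11 against 0), with 3H equal and 7H the other way (3 against 4). Among genes called after Bonferroni correction 12 rose and 21 fell in the outer zone, and 14 rose and 3 fell in the inner zone. The fold changes of all tested genes barely moved with distance, with 50.7% above 0 in the outermost 2% and 52.2% at 8 to 10%. The recounts by chromosome, by locus, without light-harvesting genes and after Bonferroni correction reused calls that were seen before the division was chosen. They are therefore no independent support for it. The split was not tested.

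**Figure D5:**
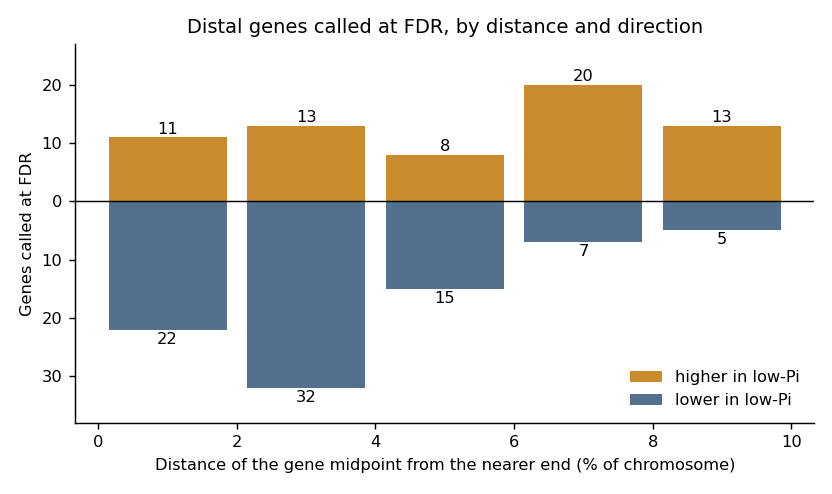
Number of distal genes called at FDR (vertical axis, counted upwards for genes higher and downwards for genes lower in low-Pi) by distance of the gene midpoint from the nearer chromosome end (horizontal axis, percent of the chromosome, 2% bins). In the outer 3 bins 11, 13 and 8 genes rose and 22, 32 and 15 fell, and in the inner pair of bins 20 and 13 rose and 7 and 5 fell.

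A further 96 of the 10904 tested distal genes were called at FDR only, of which 39 rose and 57 fell. Their median absolute log2 fold change was 1.51 and their median level 2.52. Among the 14838 other tested genes of 1H to 7H there were 88, with 37 that rose and 51 that fell, at a median level of 4.79. Of all 27022 tested genes 290 were called at FDR and 98 after Bonferroni correction. The 5 distal genes with the highest levels among those called at FDR only have no name in the sources used here. HORVU6Hr1G091660 rose by 1.43 at a level of 644, HORVU5Hr1G109360 by 1.29 at 302 and HORVU4Hr1G090300 by 1.16 at 95.7. HORVU2Hr1G104100 had a log2 fold change of -1.56 at a level of 173. HORVU1Hr1G088900, which lies beside the light-harvesting run of 1H, rose by 1.504 at a level of 86.8.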

How the data were processed

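Poly(A) RNA from shoots of 3 low-Pi and 3 control samples was sequenced. Replicates are pots of 3 plants. Per the study's methods, reads were mapped to IBSC_v2 with Ensembl Plants annotation 42 and compared in CLC Genomics Workbench. For the program version, the use of strand and the handling of reads with several matches, the settings were not given in the sources used here. A single table of 39841 genes was deposited by the authors. Its higher group mean is a normalised expression signal of unnamed unit (the methods name TPM, but the deposited column sums to 589470), called level here. Both TPM and RPKM, which the methods define as well, are per transcript length. The authors also deposited the fitted log2 fold change of low-Pi over control and a p-value with FDR and Bonferroni adjustment over all 39841 genes, of which 27022 were tested. Those columns are the authors' own comparison. No value per library was used, since the table gives none, so depth and replicate spread are unknown and no test was added.

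Genes were placed by midpoint, and groups were described by counts, medians and exact (Clopper-Pearson) 95% binomial intervals, with Python 3.11.15, pandas 2.3.3 and scipy 1.17.1. The members and lists were chosen with earlier results of these data known. The text gives each distal gene called at Bonferroni, in full for the 10 highest and 10 lowest fold changes and by name or range for the rest, the 5 highest levels, distal shoot degradome targets, the genes nearest the threshold, the 5 highest levels among FDR-only calls, and runs of called genes within 100 kb. Gene placement, the group summaries and the overlap rule were checked on simulated data, and the other steps were not part of that check. Ends of 5%, 15% and 20%, placement by first coordinate, removal of overlapping genes or of 1 chromosome, level filters and classes, and FDR calls were tried as alternatives. Upstream sequence and small RNAs were read from supplementary tables of the study. 0 HORVU identifiers matched the RefSeq name table (MorexV3), so names are the study's.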

Additional observations from a re-analysis of the deposited data

How the results depend on the processing

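Of 116 recomputed values 96 moved by less than the spread over chromosomes (for counts, by less than 1.5 times). The density ratio stayed between 2.81 and 3.19. The detected share was lower at the ends by default (-1.81 percentage points), widest at a level of at least 1 (-4.22), and turned to 0.857 with ends of 20%, the one alternative above 0. Placement by first coordinate moved no gene across the threshold. Leaving out 1 chromosome at a time gave level ratios of 0.700 to 0.773, 37 to 47 called distal genes and shares of 0.409 to 0.510%. Under each alternative tried the distal share stayed above that of the other genes, with narrower gaps in some: 0.599 against 0.525% at levels of 1 to 10, 0.418 against 0.347% with ends of 5%, 0.395 against 0.329% with ends of 15%, 0.409 against 0.318% without 6H and 0.404 against 0.297% without the light-harvesting genes. With ends of 5% there were 27 calls, at FDR 146 (1.34% of tested genes), at the start end alone 21 and at the far end alone 29. Among genes with a level of at least 1 the level ratio was 0.940, the called share 0.812% and the difference in median absolute log2 fold change 0.0167. Within level classes the called share was 0.0932% at levels above 0 to 1, 1.02% at 10 to 100 and 2.99% at 100 and over. The level ratio was 0.975 at 1 to 10, 1.09 at 10 to 100 and 0.984 at 100 and over. The difference in median log2 fold change was -0.0402 at levels above 0 to 1, 0.0556 at 10 to 100 and -0.0468 at 100 and over, and that in median absolute log2 fold change 0.0167 at 1 to 10, 0.0205 at 10 to 100 and -0.00810 at 100 and over. The construction of the classes, which compare genes of like level, sets the level ratios near 1. For the other values the cause was not tested. Counting runs within 100 kb or 1 Mb once (44 and 39 loci) and leaving out the light-harvesting genes (44 calls) were chosen after seeing the data. No paired analysis was possible because the table holds no value per library, and for the same reason no replicate could be left out.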
